A study of Drosophila melanogaster with 8 samples.

Results

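The genes described here are 95 autosomal protein-coding genes that span at least 30 kb of the Drosophila melanogaster genome and whose transcripts were listed as enriched with the RNA-binding proteins SXL or SSX. They were taken from the union of both deposited lists of enriched genes, which hold 956 genes. A gene was kept when it was protein-coding, lay neither on the X chromosome nor on the mitochondrial genome, had an annotated end minus start of at least 30000 bases and had at least 1 read in the GFP libraries. Of the genes that met these terms, fru, ps and mub were left out by name, and vn had no GFP read. All 95 genes stood in the authors' SSX list, and 18 of them also stood in the authors' SXL list. The choice therefore rests on the comparisons with GFP, so the values of those comparisons are given below as a description and support nothing.

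The libraries come from SL2 cells, a male Drosophila cell line, that were transfected with SXL, SSX or green fluorescent protein (GFP), each carrying a FLAG-3xHA tag and each collected with the anti-FLAG M2 antibody. SXL is Sex-lethal, the female switch protein of sex determination, and SSX is its paralogue Sister-of-Sex-lethal. The groups are 2 SXL IP libraries, 3 SSX IP libraries and 2 GFP IP libraries, where GFP gives the background of the precipitation, and an input control was not analysed here. The bait was expressed from a transfected construct in every group, and the sources used here do not say whether replicates came from separate cultures. The p-values below therefore reflect only how much these libraries differ, and that variation may be technical.

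Long fly genes owe their length mainly to introns, and many have several promoters and alternative first exons. Sex-lethal binds runs of uridines, which are common in introns and untranslated regions, and it is known for changing splicing and blocking translation of its targets in females. Genes with long introns in flies are rich in developmental regulators and neuronal proteins.

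Reads on the 956 listed genes numbered 3266209 and 3604413 per SXL library, 3383720, 4173927 and 4429899 per SSX library and 20859 and 27467 per GFP library. Normalized counts are counts divided by the authors' size factor of each library, which was 3.33 and 3.59 in the SXL IP, 2.15, 1.94 and 1.87 in the SSX IP and 0.0886 and 0.120 in the GFP IP. The bait transcripts matched the labels: Sxl had 33236 and 34550 normalized counts with SXL, 3123 to 6103 with SSX and 463 and 473 with GFP, and ssx had 472 and 542 with SXL, 13865 to 26027 with SSX and 307 and 384 with GFP. Of 8 markers of the blood-cell-like SL2 line, srp and zfh1 stood in the lists, as did elav of 4 neuronal markers and none of 2 glial, 2 muscle and 3 germline markers. Genes outside the lists have no counts per library here, and their deposited mean normalized counts were not examined. A place in the lists reflects enrichment over GFP and not expression, so these markers do not check the cell type. In bulk libraries fewer cells and less RNA per cell cannot be told apart, and without the input neither can recovery with a bait and abundance in the cells.

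The 95 genes carried 9.82% and 10.32% of the listed genes' reads in the SXL libraries, 13.26%, 12.75% and 12.16% in the SSX libraries and 15.6% and 16.51% in the GFP libraries. Their share was thus lowest in both SXL libraries and highest in both GFP libraries, without overlap between groups. Such a share also depends on the reads of the other listed genes, the bait transcripts among them. The members had to have GFP reads and all stood in the SSX list, so nothing is read from this order, which was not tested. The read support of a single gene varied widely. Summed over both GFP libraries the members had from 1 to 1142 reads with a median of 33, and 5 members had 1 to 3 GFP reads, 9 had 4 to 9 and 81 had 10 or more.

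The genes lie on every major autosomal arm, with 24 on 2L, 14 on 2R, 31 on 3L, 23 on 3R and 3 on chromosome 4. Their spans ran from 30067 to 171339 bases with a median of 48704. The 463 shorter autosomal coding genes of the lists with GFP reads, chosen by the same terms except length, had a median span of 6246. All 95 spans were identical to those in RefSeq's annotation of Release 6, in which 538 autosomal coding genes reach the same length, so the members made up 17.7% of them. The members had a median of 6 RefSeq transcripts per gene (from 2 to 75, the highest being Dscam1), against 3 for the shorter listed genes and 4 for the other 443 long autosomal genes, whose median span was 47138. In 66 of the 95 spans at least 1 other RefSeq gene lay wholly inside, up to 19 in Ptp61F, and 6 members (4EHP, PMCA, Ptp61F, Syp, brat and unc-13) overlapped another listed gene. Whether counting used the strand is not given in the sources used here, so reads of nested and host genes cannot be told apart with certainty.

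In the deposited gene annotation, terms of development and of the nervous system were more frequent among the long genes than among the shorter listed genes. So was every other term counted. Wing morphogenesis was annotated for 17 of the 90 members with any term (18.9%), against 18 of 429 shorter listed genes (4.20%). Axon guidance was annotated for 11 (12.2%), against 16 (3.73%), and dendrite morphogenesis for 10 (11.1%), against 17 (3.96%). DNA-binding transcription factor activity was annotated for 11 (12.2%), against 26 (6.06%), and protein serine/threonine kinase activity for 7 (7.78%), against 17 (3.96%). A location in the nucleus was given for 35 (38.9%), against 110 (25.6%), and at the plasma membrane for 15 (16.7%), against 41 (9.56%). The terms were picked for this work. The others counted were oogenesis (12.2% against 4.43%), actin binding (5.56% against 2.10%) and mRNA binding (5.56% against 3.73%). These shares describe the annotation and were not tested.

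Against GFP, every member was higher with SSX, as the choice required. In the authors' deposited tables the members' log2 fold change over GFP ran from -0.90 to 3.17 with SXL (median 1.41) and from 2.00 to 4.47 with SSX (median 2.61). The medians of the 956 listed genes were 1.55 and 2.77 in the authors' deposited tables. The listing rule, a log2 above 2 with an adjusted p under 0.001, had taken 2.78% of the genes tested for SXL and 10.5% of those tested for SSX. At an adjusted p of 0.05 in the authors' deposited table, 80 of the 95 were higher with SXL than with GFP, 15 did not pass and none was lower, where 16.4% of the genes tested were called higher. Nothing is read from these counts, since the members were chosen with them.

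**Figure D1:**
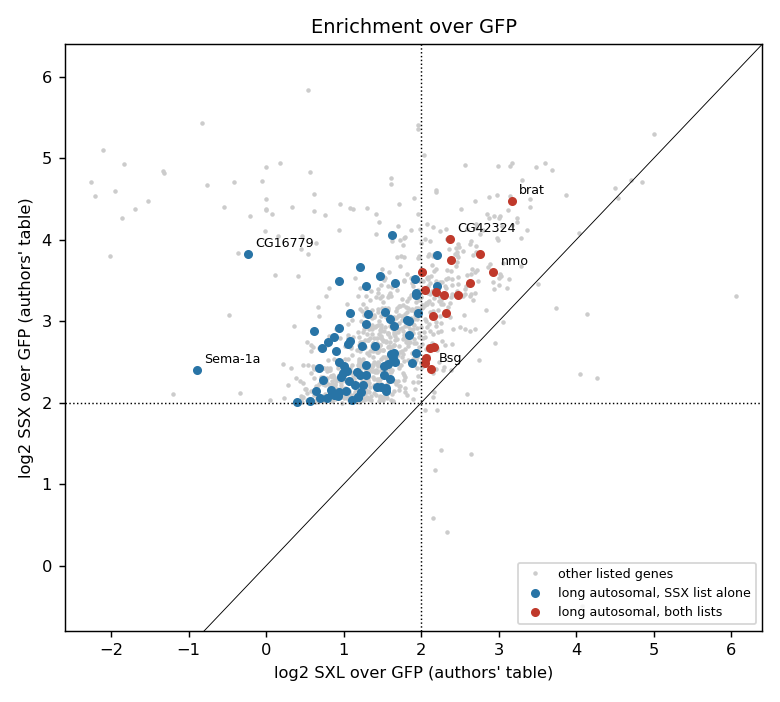
Log2 fold change over GFP in the authors' deposited tables, with SXL on the x axis and SSX on the y axis; red points are the 18 long autosomal genes in both lists, blue points the other 77, grey points the remaining listed genes. Dotted lines mark the listing threshold of 2, and the solid line marks equal values; every long gene lies above it.

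The 18 genes in both lists include regulators of transcription, translation and signalling. Their log2 fold changes over GFP in the authors' deposited tables were highest for brat, at 3.17 with SXL and 4.47 with SSX, followed on the SXL side by nmo (2.93 with SXL and 3.60 with SSX), Pdp1 (2.76 with SXL and 3.83 with SSX) and pan (2.63 with SXL and 3.47 with SSX). The product of brat is a translational repressor that limits neural stem cell growth, nmo encodes a kinase of the Wnt and Notch pathways, Pdp1 a clock-linked transcription factor and pan the TCF factor of Wnt signalling. The others were CG42324, hdc, Syp, Snoo, msi, sowah, CASK, Eip74EF, tmod, bun, Lasp, CG18769, MFS17 and Bsg, and their values over GFP lay between 2.01 and 2.47 with SXL and between 2.41 and 4.01 with SSX in the authors' deposited tables. Several of these genes were named after their values had been seen.

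With SXL set against SSX directly, from the counts, all 95 genes had lower normalized counts with SXL. The median log2 SXL over SSX was -1.28, which corresponds to a 2.43-fold higher level with SSX, and single genes ran from -4.15 to -0.28. In edgeR's quasi-likelihood test over all 956 listed genes, 93 of the 95 were lower with SXL at an adjusted p of 0.05 and none was higher. Among all listed genes 92.7% were lower and 1.26% higher in the same test, so the members' 97.9% is close to what any listed gene showed. Of the 95, 90 were lower with SXL in the authors' deposited table, where 25.9% of the genes tested were called lower. In 92 of the 95 genes both SXL libraries lay below all 3 SSX libraries, as they did in 94.6% of the listed genes, and bun, CG18769 and Bsg were the exceptions. All members had been chosen for enrichment with SSX, which favours this direction, so the sign is no independent result.

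The size of the difference was near that of all listed genes and somewhat larger than that of the shorter ones. The members' median of -1.28 stood beside -1.24 for all listed genes and -1.09 for the 463 shorter autosomal coding genes, and the quartiles of the members were -1.61 and -0.92, against -1.44 and -0.82 for the shorter genes. The medians over the 6 pairs of 1 SXL and 1 SSX library ran from -1.51 to -0.92 in the members. Within every one of these pairs, which share libraries, the members' median lay below that of the shorter genes, by a difference between -0.24 and -0.088 that was not tested. A log2 below -1 was seen in 65 members (68.4%), against 67.3% of all listed genes and 57.5% of the shorter genes. Within the part of the members listed for SSX alone the median was -1.32 (77 genes), and within the part in both lists it was -0.89 (18 genes), against -1.15 and -0.96 in the shorter genes. Standing in both lists requires high recovery with SXL, so this split itself favours a smaller difference in the 18 genes.

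The scale on which libraries are compared decides the sign. With library factors computed from the listed genes alone (TMM), the members' median was -0.024, with 48 below 0 and 47 above, and 17 were called lower and 18 higher with SXL. That scaling centres genes that had been chosen for enrichment with SSX, so it cannot test the direction, and which genes the authors' size factors rest on is not given in the sources used here. Across all 9500 genes in the authors' deposited table, the median log2 SXL over SSX was -0.23. With equal totals of the listed genes 65 members were below 0 and 30 above, and with median-ratio factors over them 56 were below and 39 above.

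**Figure D2:**
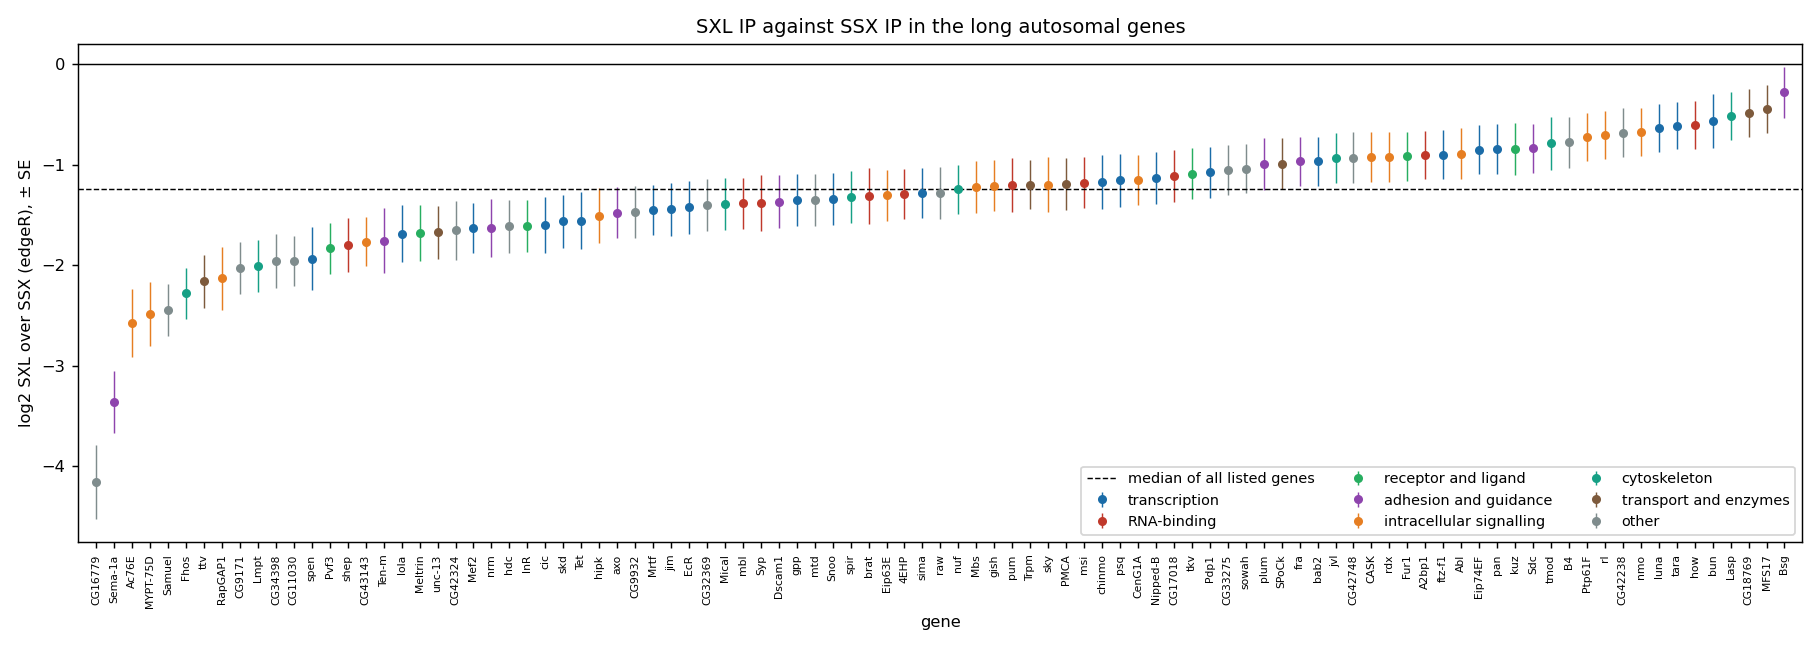
Log2 SXL over SSX of each of the 95 long autosomal genes, in order of value, from edgeR with the authors' size factors; bars are standard errors and colours show the role. The values run from -4.15 for CG16779 to -0.28 for Bsg, and the dashed line marks the median of all 956 listed genes at -1.24.

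The difference varied little with gene span. Across the 95 members, which share the same 7 libraries, the Spearman correlation of log2 SXL over SSX with span was 0.07, and with the mean normalized count -0.03. Over the 558 autosomal coding genes of all lengths it was -0.11 with span. By span, the median was -1.10 for 194 genes under 5 kb, -1.04 for 113 genes of 5 to 10 kb, -1.05 for 112 genes of 10 to 20 kb, -1.19 for 44 genes of 20 to 30 kb, -1.30 for 50 genes of 30 to 50 kb, -1.17 for 36 genes of 50 to 100 kb and -1.20 for 9 genes of 100 kb or more. The genes of every class overlapped with those of the others.

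**Figure D3:**
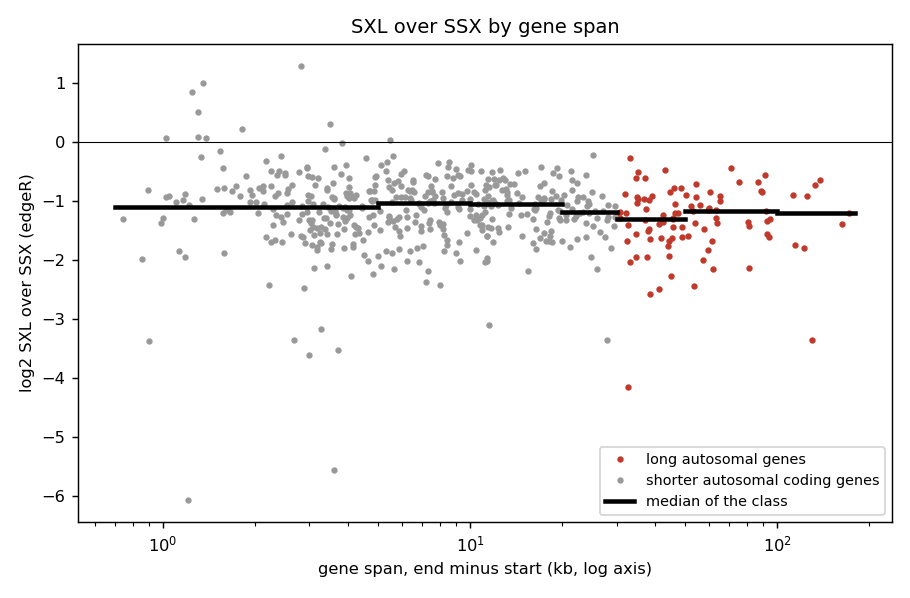
Log2 SXL over SSX against gene span in kb (log axis) for the 95 long autosomal genes (red) and the 463 shorter autosomal coding genes (grey); thick lines are the medians of span classes. The class medians lie between -1.30 and -1.04. Values above 0 occur only among genes under 10 kb. All 112 genes of 10 to 20 kb and all 44 of 20 to 30 kb lie below 0, like the long genes.

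The members nearest the length limit had values like their shorter neighbours. Mbs, PMCA and raw, with an end minus start of 30067, 30724 and 30780 bases, had log2 SXL over SSX of -1.21, -1.18 and -1.27 in the authors' deposited table. Just under the limit, Nhe2, arr and par-1, with 29687, 29589 and 29516 bases, had -1.25, -1.08 and -1.42 in the authors' deposited table.

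Regulators of transcription and chromatin were the largest group of long genes, with 23 members. All 23 were lower with SXL than with SSX, with a median log2 of -1.28, where 92.7% of all listed genes were lower with a median of -1.24. The counts of the role groups below stand against the same background. The 11 of them on the list of transcription factors drawn up for this work were all lower too, with a median of -0.96. The transcript of spen (FBgn0016977, 2L, 159032 to 203397), a large nuclear protein with RNA-binding and SPOC domains, had normalized counts of 5239 and 5182 in the SXL libraries, against 16496, 21760.3 and 21445 in the SSX libraries and 2889 and 2765 in the GFP libraries. Its SXL values were close to each other and lay below every SSX value and above both GFP values. For spen the log2 SXL over SSX was -1.93 (SE 0.31, edgeR adjusted p = 2.7e-09).

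The BTB zinc-finger gene lola (FBgn0005630, 2R, 10481894 to 10543291), which makes many protein isoforms by alternative splicing and guides axons, had normalized counts of 2651 and 2877 in the SXL libraries, against 7269, 9584 and 9782 in the SSX libraries and 1230.1 and 1021 in the GFP libraries. The groups did not overlap, and log2 SXL over SSX was -1.68 (SE 0.28, edgeR adjusted p = 1.2e-08). For Mef2 (FBgn0011656, 2R, 9913496 to 9958858), the muscle differentiation factor, normalized counts came to 165 and 176 in the SXL libraries, against 400.4, 513 and 672 in the SSX libraries and 102 and 149 in the GFP libraries. Here the SXL values stood only slightly above the GFP values, and the log2 SXL over GFP was 0.39 in the authors' deposited table. For Mef2 the log2 SXL over SSX was -1.63 (SE 0.25, edgeR adjusted p = 2.9e-10). Tet (FBgn0263392, 3L, 2786207 to 2879158), the fly member of the TET family, had 2879 and 2989 in the SXL libraries, against 7179.7, 8550.5 and 10118 in the SSX libraries and 1704 and 1802 in the GFP libraries, with no overlap of the groups and a log2 SXL over SSX of -1.55 (SE 0.28, edgeR adjusted p = 1.1e-07).

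Several of these genes belong to the response to the moulting hormone ecdysone. EcR (FBgn0000546, 2R, 6087873 to 6169087), the nuclear receptor of the hormone, had normalized counts of 1314 and 1351 in the SXL libraries, against 2755, 3304 and 4657 in the SSX libraries and 271 and 399 in the GFP libraries. Every SSX value lay above both SXL values, and log2 SXL over SSX was -1.42 (SE 0.26, edgeR adjusted p = 1.5e-07). Eip74EF, an early ecdysone-induced Ets factor, had -0.85, and ftz-f1, a nuclear receptor that sets competence for later hormone pulses, had -0.90 on the same scale. The gene chinmo (FBgn0086758, 2L, 1651258 to 1704682), whose BTB zinc-finger protein marks early-born neurons and male identity of testis stem cells, had normalized counts of 2328 and 2717 in the SXL libraries, against 4332, 5189.7 and 7514 in the SSX libraries and 643 and 731 in the GFP libraries and a log2 SXL over SSX of -1.17 (SE 0.27, edgeR adjusted p = 2e-05).

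The smallest differences of the transcription group belonged to luna, tara and bun. For luna (FBgn0040765, 2R, 10977956 to 11116378), a Krüppel-like factor, normalized counts came to 332 and 357 in the SXL libraries, against 456, 606 and 544 in the SSX libraries and 79.0 and 141 in the GFP libraries. The SXL and SSX ranges did not overlap, and log2 SXL over SSX was -0.64 (SE 0.24, edgeR adjusted p = 0.0088). The gene tara (FBgn0040071, 3R, 16225651 to 16260329), which encodes a cofactor linked to trithorax function, had 261 and 301 in the SXL libraries, against 359.9, 409 and 516 in the SSX libraries and 79.0 and 66.4 in the GFP libraries and a log2 SXL over SSX of -0.61 (SE 0.24, edgeR adjusted p = 0.011). With only 1 SXL library in the fit these calls were lost: luna had -0.59 without SXL library 2 (edgeR adjusted p = 0.13) and -0.69 without SXL library 3 (edgeR adjusted p = 0.075), and tara had -0.51 and -0.72 (edgeR adjusted p = 0.18 and 0.065).

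The TSC22-family gene bun (FBgn0259176, 2L, 12455540 to 12546611), a growth regulator, had normalized counts of 4029 and 5309 in the SXL libraries, against 5265, 6734 and 8746 in the SSX libraries and 1174 and 955 in the GFP libraries. SXL library 3 lay above SSX library 1, so the groups overlapped. The log2 SXL over SSX of bun was -0.57 (SE 0.27, edgeR adjusted p = 0.038), and in edgeR the call was lost without either SXL library, SSX library 2 or 3 or either GFP library, with values from -0.78 to -0.36. It did not pass in the authors' deposited table (adjusted p = 0.065).

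**Figure D4:**
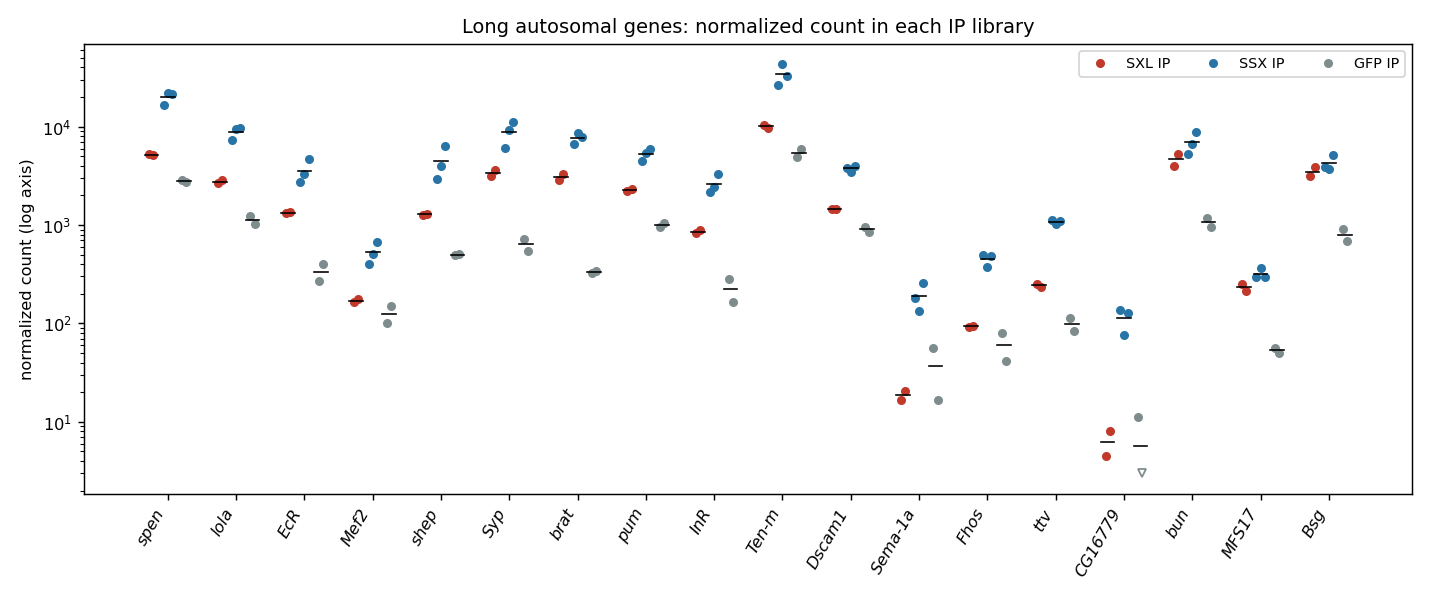
Normalized count on a log axis of 18 long autosomal genes in the SXL (red), SSX (blue) and GFP (grey) IP libraries; each point is a library, black lines are group means, and an open triangle drawn at 3 marks a library without reads. Within each gene the SSX points lie above the SXL points except in bun and Bsg, where they overlap; heights should not be compared between genes, whose lengths differ.

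RNA-binding proteins made up 10 members, and all 10 were lower with SXL than with SSX, with a median log2 of -1.25 (all listed genes 92.7% lower, median -1.24). The 8 of them on the list of RNA-binding proteins were all lower as well (median -1.26). The gene shep (FBgn0052423, 3L, 5155821 to 5277944), which encodes a protein of neuronal remodelling with RNA recognition motifs, had normalized counts of 1277 and 1284 in the SXL libraries, against 2906, 4032 and 6406 in the SSX libraries and 497 and 506 in the GFP libraries. The SXL pair agreed closely while the SSX libraries were far apart, and log2 SXL over SSX was -1.80 (SE 0.27, edgeR adjusted p = 1.2e-10). The splicing regulator mbl (FBgn0265487, 2R, 17216549 to 17379376), fly muscleblind, had 427 and 514 in the SXL libraries, against 968, 1253 and 1459.7 in the SSX libraries and 271 and 191 in the GFP libraries, with separate groups and a log2 SXL over SSX of -1.38 (SE 0.26, edgeR adjusted p = 1.8e-07).

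The transcripts of Syp and brat were high over GFP with both baits. Normalized counts of Syp (FBgn0038826, 3R, 20756729 to 20810726), the Syncrip homologue that times neural stem cell fates, were 3158 and 3617 in the SXL libraries, against 6103, 9231 and 11079 in the SSX libraries and 722 and 548 in the GFP libraries. Its log2 SXL over SSX was -1.38 (SE 0.28, edgeR adjusted p = 1.8e-06). Normalized counts of brat (FBgn0010300, 2L, 19133816 to 19179758) were 2900.5 and 3307 in the SXL libraries, against 6670.3, 8589 and 7839 in the SSX libraries and 327 and 340.4 in the GFP libraries. Both SXL values exceeded the GFP values several-fold and stayed below all SSX values, and log2 SXL over SSX was -1.31 (SE 0.27, edgeR adjusted p = 3.7e-06).

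The longest member, pum (FBgn0003165, 3R, 9066343 to 9237682), encodes Pumilio, which represses translation of mRNAs such as hunchback. It had normalized counts of 2243 and 2329.5 in the SXL libraries, against 4455, 5367 and 5948 in the SSX libraries and 948 and 1054 in the GFP libraries. The groups were separate, and log2 SXL over SSX was -1.20 (SE 0.27, edgeR adjusted p = 1.1e-05). Among the partners of this repression the log2 SXL over SSX was -1.31 for brat and -1.29 for 4EHP, a cap-binding protein, and msi, the Musashi homologue, had -1.18 on the log2 scale. At the other end how (FBgn0264491, 3R, 22042191 to 22079321), the fly quaking homologue, had normalized counts of 352 and 371 in the SXL libraries, against 428, 585 and 633 in the SSX libraries and 113 and 125 in the GFP libraries and a log2 SXL over SSX of -0.60 (SE 0.24, edgeR adjusted p = 0.013). With only 1 SXL library in the fit the log2 value of how hardly moved, at -0.57 without SXL library 2 (edgeR adjusted p = 0.14) and -0.64 without SXL library 3 (edgeR adjusted p = 0.097), and the call was lost.

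Receptors, ligands and the proteases that process them numbered 6, all lower with SXL (median -1.35). Of the list of receptors and secreted signals 5 were members, Sdc among them, and all 5 were lower (median -1.09). The ligand gene Pvf3 (FBgn0085407, 2L, 7098188 to 7157695), of the PDGF and VEGF family that acts on blood cells, had normalized counts of 112 and 134 in the SXL libraries, against 322, 332 and 658 in the SSX libraries and 45.1 and 24.9 in the GFP libraries. SSX library 3 was clearly above the other SSX libraries, and log2 SXL over SSX was -1.83 (SE 0.25, edgeR adjusted p = 2.1e-12). The insulin receptor gene InR (FBgn0013984, 3R, 21570248 to 21619321) had 824 and 894 in the SXL libraries, against 2152, 2431 and 3267 in the SSX libraries and 282 and 166 in the GFP libraries, with separate groups and a log2 SXL over SSX of -1.61 (SE 0.26, edgeR adjusted p = 3.7e-09).

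The type I BMP receptor gene tkv (FBgn0003716, 2L, 5219000 to 5271384) had normalized counts of 99.7 and 103 in the SXL libraries, against 212, 249 and 186 in the SSX libraries and 45.1 and 41.5 in the GFP libraries. The SXL libraries lay close together, and the GFP libraries held 4 and 5 reads. This gave tkv a log2 SXL over SSX of -1.09 (SE 0.25, edgeR adjusted p = 3e-05). Among the proteases, Meltrin had -1.68, Fur1, a furin, -0.92, and kuz, the ADAM protease that cleaves Notch, -0.84 on the log2 scale.

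Cell adhesion and axon guidance genes numbered 9, of which 8 were lower with SXL (median -1.37) and Bsg did not pass. All 5 members on the list of adhesion, matrix and cytoskeleton genes, Mical included, were lower (median -1.39). The guidance gene Sema-1a (FBgn0011259, 2L, 8542147 to 8672041), a transmembrane semaphorin, stood out with normalized counts of 16.5 and 20.6 in the SXL libraries, against 180.2, 133 and 259 in the SSX libraries and 56.4 and 16.6 in the GFP libraries. Neither SXL value exceeded the higher GFP value, and all SSX values did, but the GFP values rest on 5 and 2 reads. The log2 SXL over SSX of Sema-1a was -3.36 (SE 0.31, edgeR adjusted p = 7.5e-26), lower than in every other member but CG16779. In the authors' deposited table its log2 SXL over GFP was -0.90 (SE 0.61, adjusted p = 0.28), which did not pass, against 2.40 for SSX over GFP.

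The largest read support of all members belonged to Ten-m (FBgn0004449, 3L, 22293044 to 22407863), a teneurin of synaptic partner matching, with normalized counts of 10424 and 9802 in the SXL libraries, against 26621, 42978 and 32671 in the SSX libraries and 4864 and 5903 in the GFP libraries. The groups were separate, and log2 SXL over SSX was -1.75 (SE 0.32, edgeR adjusted p = 1.8e-07). Dscam1 (FBgn0033159, 2R, 7317924 to 7381899), the immunoglobulin gene known for its very large number of splice isoforms, had 1466 and 1457 in the SXL libraries, against 3833, 3468 and 4011 in the SSX libraries and 959 and 847 in the GFP libraries. Its SXL libraries were almost equal, and log2 SXL over SSX was -1.37 (SE 0.26, edgeR adjusted p = 4.3e-07).

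For Sdc (FBgn0010415, 2R, 21392402 to 21481176), syndecan, a coreceptor of Slit, normalized counts came to 332 and 380.3 in the SXL libraries, against 488, 633 and 786 in the SSX libraries and 33.9 and 191 in the GFP libraries. The GFP libraries differed widely, with 3 and 23 reads. The log2 SXL over SSX of Sdc was -0.84 (SE 0.24, edgeR adjusted p = 0.00074), and -0.74 without SXL library 2 (edgeR adjusted p = 0.059). Bsg (FBgn0261822, 2L, 8083420 to 8116531), the immunoglobulin protein basigin, had normalized counts of 3118 and 3887 in the SXL libraries, against 3872, 3748 and 5127 in the SSX libraries and 903 and 681 in the GFP libraries. SXL library 3 lay above SSX libraries 1 and 2, so the groups overlapped. The log2 SXL over SSX of Bsg was -0.28 (SE 0.26, edgeR adjusted p = 0.28), the smallest difference among the members.

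Kinases, phosphatases and other intracellular signalling genes numbered 16, all lower with SXL than with SSX (median -1.20, against 92.7% lower and a median of -1.24 in all listed genes). The 4 on the matching list (Abl, Eip63E, Ptp61F and rl) were all lower, with a median of -0.81. Strong differences came from genes with few reads: MYPT-75D (FBgn0036801, 3L, 18625959 to 18667177), a myosin phosphatase targeting subunit, had normalized counts of 15.9 and 24.5 in the SXL libraries, against 121, 86.5 and 134 in the SSX libraries and 11.3 and 0 in the GFP libraries, with a single GFP read. The SXL values were well under the SSX values, and log2 SXL over SSX was -2.49 (SE 0.32, edgeR adjusted p = 8.7e-14). RapGAP1 (FBgn0264895, 2L, 7497805 to 7578980), which switches off the small GTPase Rap1, had 20.4 and 28.4 in the SXL libraries, against 102, 72.6 and 147 in the SSX libraries and 0 and 8.30 in the GFP libraries and a log2 SXL over SSX of -2.13 (SE 0.31, edgeR adjusted p = 8.5e-11). The adenylyl cyclase gene Ac76E, named after its values were seen, had -2.57, also with 1 GFP read.

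Ac76E, MYPT-75D, CG16779, nrm and RapGAP1 had 1 GFP read each, so their ratios to GFP are poorly bounded. The ratio of SXL to GFP for MYPT-75D was 4.26 (95% counting interval 0.764 to 168), while with SSX the same ratio reached 23.8 (95% counting interval 4.27 to 939). For CG16779 the ratio was 1.33 with SXL (95% counting interval 0.238 to 52.5) and 23.9 with SSX (95% counting interval 4.29 to 944). For nrm it was 9.24 with SXL (95% counting interval 1.66 to 365) and 28.5 with SSX (95% counting interval 5.11 to 1124). These are exact Poisson intervals of the GFP read and cover counting error only. The genes were chosen for enrichment over GFP with SSX, which favours high SSX ratios. Nothing is therefore read from the SSX intervals or from their standing beside the SXL intervals.

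Among the kinases, Eip63E (FBgn0005640, 3L, 3515751 to 3610521), a cyclin-dependent kinase, had normalized counts of 514 and 517 in the SXL libraries, against 1066, 1517 and 1229.7 in the SSX libraries and 203 and 125 in the GFP libraries. The groups did not overlap, and log2 SXL over SSX was -1.30 (SE 0.26, edgeR adjusted p = 8e-07). Abl (FBgn0000017, 3L, 16615866 to 16647882), a tyrosine kinase that acts on the actin cytoskeleton, had 1602 and 1656 in the SXL libraries, against 2686, 2970 and 3398 in the SSX libraries and 688 and 731 in the GFP libraries and a log2 SXL over SSX of -0.89 (SE 0.26, edgeR adjusted p = 0.00065). The gene rl (FBgn0003256, 2R, 1071462 to 1125927), the ERK kinase of the fly, had 261 and 248 in the SXL libraries, against 356, 463 and 427 in the SSX libraries and 56.4 and 99.6 in the GFP libraries, a narrower gap with a log2 SXL over SSX of -0.71 (SE 0.24, edgeR adjusted p = 0.0034).

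The phosphatase gene Ptp61F (FBgn0267487, 3L, 1342493 to 1475257) had normalized counts of 297 and 291 in the SXL libraries, against 396, 428 and 633 in the SSX libraries and 124 and 83.02 in the GFP libraries. The SXL pair lay below the lowest SSX library, and log2 SXL over SSX was -0.73 (SE 0.24, edgeR adjusted p = 0.0028). The calls of rl and Ptp61F were lost without SXL library 2, at -0.74 and -0.74 (edgeR adjusted p = 0.057 and 0.057) and without SXL library 3, at -0.67 and -0.71 (edgeR adjusted p = 0.084 and 0.067). The paralogues Mbs and MYPT-75D, both targeting subunits of myosin phosphatase, had -1.22 and -2.49, and their difference was not tested.

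Cytoskeletal genes numbered 8, all lower with SXL (median -1.28). Fhos (FBgn0266084, 3L, 8753619 to 8798719), an actin-nucleating formin, had normalized counts of 91.0 and 95.1 in the SXL libraries, against 499, 376 and 479 in the SSX libraries and 79.0 and 41.5 in the GFP libraries. Its SXL values were near the GFP values and far from the SSX values, with a log2 SXL over SSX of -2.28 (SE 0.26, edgeR adjusted p = 1.2e-17). Mical (FBgn0053208, 3R, 10001554 to 10042895), an enzyme that oxidises actin downstream of semaphorin receptors, had 936 and 965 in the SXL libraries, against 1953, 2623 and 2888 in the SSX libraries and 485 and 465 in the GFP libraries and -1.39 (SE 0.26, edgeR adjusted p = 2.3e-07). Lasp (FBgn0063485, 3L, 16676406 to 16711677), an actin-binding LIM protein, had 241 and 236 in the SXL libraries, against 305, 275 and 444 in the SSX libraries and 67.7 and 33.2 in the GFP libraries, with a log2 SXL over SSX of -0.52 (SE 0.24, edgeR adjusted p = 0.032). The Lasp call was lost without either SXL library and without SSX library 3, where the value was -0.28 (edgeR adjusted p = 0.19), and it did not pass in the authors' deposited table (adjusted p = 0.12).

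Genes of transport, among which unc-13 was placed here, and enzymes numbered 7, of which 6 were lower with SXL (median -1.19). The 1 member on the list of channels, transporters and metabolism was ttv (FBgn0265974, 2R, 14526267 to 14587917), a heparan sulfate polymerase needed for Hedgehog spread, with normalized counts of 250.4 and 236 in the SXL libraries, against 1120.3, 1029.8 and 1109 in the SSX libraries and 113 and 83.02 in the GFP libraries. Its libraries agreed closely within each bait, and log2 SXL over SSX was -2.16 (SE 0.26, edgeR adjusted p = 2.9e-15). The calcium pumps PMCA and SPoCk had -1.19 and -0.99 on the log2 scale, and the cation channel Trpm had -1.20.

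CG18769 (FBgn0042185, 3L, 6550738 to 6593940), named MCU in RefSeq for the mitochondrial calcium uniporter, had normalized counts of 244 and 273 in the SXL libraries, against 260.3, 351 and 473 in the SSX libraries and 33.9 and 74.7 in the GFP libraries. SXL library 3 lay above SSX library 1, and log2 SXL over SSX was -0.48 (SE 0.24, edgeR adjusted p = 0.043). That call was lost without either SXL library and without SSX library 2 or 3, with values from -0.57 to -0.24, and it did not pass in the authors' deposited table (adjusted p = 0.18). MFS17 (FBgn0058263, 2R, 2494742 to 2565385), a transporter of the major facilitator superfamily, had 254 and 216 in the SXL libraries, against 297, 365 and 295 in the SSX libraries and 56.4 and 49.8 in the GFP libraries. The groups were separate, but log2 SXL over SSX was -0.44 (SE 0.24, edgeR adjusted p = 0.065) and did not pass. Without SSX library 1 or 3 it passed, at -0.49 in both cases (edgeR adjusted p = 0.025 and 0.02).

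The remaining 16 members have no role assigned here, and all 16 were lower with SXL (median -1.43). CG16779 (FBgn0037698, 3R, 9461084 to 9493677) had the lowest value of all members, with normalized counts of 4.50 and 8.07 in the SXL libraries, against 137, 76.7 and 127 in the SSX libraries and 11.3 and 0 in the GFP libraries. These SXL values rest on 15 and 29 reads, and they were no higher than the GFP value that rests on 1 read. The resulting log2 SXL over SSX of CG16779 was -4.15 (SE 0.37, edgeR adjusted p = 4.6e-27). Samuel (FBgn0032330, 2L, 11013206 to 11066998), a protein with a SAM motif, had 108 and 97.4 in the SXL libraries, against 554, 455 and 673 in the SSX libraries and 22.6 and 33.2 in the GFP libraries and a log2 SXL over SSX of -2.45 (SE 0.26, edgeR adjusted p = 6.7e-20). CG9171 (FBgn0031738, 2L, 5767002 to 5800253) had 286 and 253 in the SXL libraries, against 991, 1174 and 1134 in the SSX libraries and 113 and 133 in the GFP libraries and -2.03 (SE 0.26, edgeR adjusted p = 1e-13).

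CG42324 (FBgn0259224, 3L, 3472447 to 3510895) was among the members with the largest read support and stood in both lists, with normalized counts of 3809 and 3982 in the SXL libraries, against 9371, 16056 and 11267 in the SSX libraries and 790 and 681 in the GFP libraries. All groups were separate, and log2 SXL over SSX was -1.65 (SE 0.29, edgeR adjusted p = 5.4e-08). The gene hdc, headcase (heca in RefSeq), which acts in imaginal and tracheal development, had -1.61 on the log2 scale.

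The SSX libraries were not alike in these genes. SSX library 3 had the highest normalized count of the SSX libraries in 68 members (71.6%), against 58.7% of the shorter autosomal coding genes and 58.4% of all listed genes, and SSX library 1 had the lowest in 78 (82.1%), against 74.7% and 76.7%. By role, SSX library 3 was highest in 21 of 23 transcription genes, 5 of 6 receptor and ligand genes, 7 of 9 adhesion genes, 12 of 16 signalling genes, 5 of 8 cytoskeletal genes, 6 of 10 RNA-binding genes, 4 of 7 transport and enzyme genes and 8 of 16 others. By span, its share of highest values was 46.9% under 5 kb, 61.1% at 5 to 10 kb, 73.2% at 10 to 20 kb and 68.2% at 20 to 30 kb, so it did not set genes above 30 kb apart from those of 10 to 30 kb. The median ratio of SSX library 3 to SSX library 1 was 1.37 in the members and 1.28 in the shorter genes. For the only SXL pair the median ratio of library 3 to library 2 was 1.07 in the members, with a largest ratio of 1.79 between them in any member. The SSX ratio was taken between the libraries most often highest and lowest of 3, so these ratios do not show which bait's libraries agreed better. The part of library quality in this pattern was not tested.

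Leaving out single libraries moved the number of calls and not the sign. The sign was all but fixed beforehand. In 92 of the 95 genes both SXL libraries lay below all SSX libraries, and the authors' size factors were kept. The stable sign is therefore no check of the direction. With each library left out in turn, all members kept a negative log2 SXL over SSX, the median lay between -1.37 (without SSX library 1) and -1.18 (without SSX library 3), and between 77 (without SXL library 2) and 94 (without SSX library 1) members were called lower with SXL. With a single SXL library in the fit, that library was assumed to vary like the other groups. All tests were two-sided.

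The median log2 SXL over SSX was -1.30 in the 66 members with other RefSeq genes inside their span, against -1.21 in the 29 without. By arm it was -1.30 on 2L, -1.18 on 2R, -1.30 on 3L, -1.28 on 3R and -1.19 on chromosome 4. The differences between these subsets were not tested.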

How the data were processed

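RNA from anti-FLAG precipitates of SL2 cells was depleted of ribosomal RNA and sequenced in paired ends of 51 nt with a stranded low-input kit, per the labels' protocols. The submitters' processing notes name Trimmomatic, TopHat2, featureCounts, DESeq, DESeq2 and the build BDGP6; versions and strand setting are not given in the sources used here. The authors deposited 3 tables over all genes and 2 lists of enriched genes. Per the file headers they hold the mean normalized count (a signal), the log2 fold change, its standard error, the test's score and its p-value before and after adjustment. The lists add raw counts per library, which the authors deposited unnormalized; size factors were solved by least squares from these counts and the mean normalized counts, and 14 other columns of per-library values were not used.

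The 95 genes were picked by the stated terms, and 18 names were excluded. edgeR 4.0.16 (R 4.3.3) was run on the counts of all 956 listed genes with the authors' size factors, all 7 IP libraries in 1 fit and Benjamini-Hochberg adjustment over the 956 genes at 0.05, without a filter; DESeq2 1.42.0 was an alternative. The standard error is the log2 value over the root of the F statistic. On simulated counts of the 956 genes for SXL against SSX, edgeR called 91% of genes changed by a log2 of 1, 100% of those changed by 2 and 0.529% of unchanged genes. There 756 genes were unchanged, the others moved up and down alike, and size factors and spread were those of the fit. The real listed genes mostly moved 1 way, so these rates do not cover an error of scale and do not carry over to the calls above. Tables and figures used Python 3.11.15, pandas 2.3.3, numpy 2.4.6, scipy 1.17.1 and matplotlib 3.10.9.

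The columns of SXL and GFP are numbered 2 and 3 where the titles have 1 and 2, so they were matched by group alone, and libraries are named by column. Members, lists and tests were chosen with earlier results of these data known. Names followed a rule: the 8 highest and 8 lowest log2 SXL over SSX among genes averaging 50 or more normalized counts, the 5 longest, the 5 of highest mean normalized count, and up to 4 of lowest adjusted p in each of 6 role lists. Other role groups were assigned with values known; genes named beyond the rule are marked or appear as group members. Same-numbered libraries were not taken as pairs, since the labels do not say that numbers pair libraries. The Pearson r of library 3 over library 2 across genes was 0.12 for SXL with SSX, -0.03 for SXL with GFP and 0.06 for SSX with GFP. These values cannot exclude pairs, since each ratio rests on single libraries and the GFP libraries hold few reads. Alternatives covered scaling, test, source, filter, libraries, length limit and a replicate block. No sequence is shown, since no sequence table was used here.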

Additional observations from a re-analysis of the deposited data

How the results depend on the processing

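The median log2 SXL over SSX, the count of genes lower with SXL and the absence of genes higher with SXL held with DESeq2 (91 lower, 0 higher, with CG18769 and Lasp no longer passing), with SXL and SSX libraries alone (92 lower), among genes averaging 50 or more normalized counts (92 lower of 94), in the authors' deposited table (90 lower), with 20 kb as the length limit (135 lower of 139) and with the gene without GFP reads added (94 lower of 96). With 50 kb as the limit 44 of 45 were lower, fewer because fewer genes qualify. Leaving out single libraries gave 77 to 94 genes lower, 0 higher in each case and medians from -1.37 to -1.18. The replicate block by column number called 95 lower with SXL (median -1.36), and it moved Bsg (-0.34, edgeR adjusted p = 0.046) and MFS17 (-0.49, edgeR adjusted p = 0.014) past the threshold. Only SSX library 1 has the number 1, so the block takes that library out of the comparison. The run is therefore no check separate from leaving out SSX library 1, and the labels do not say that numbers pair libraries. Every setting named so far in this section kept the authors' scale between libraries, so none of them checks the direction.

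Scaling over the listed genes centres genes chosen for enrichment, and it changed the counts. TMM gave 17 lower and 18 higher with SXL and a median of -0.024, equal totals 32 lower and 5 higher with -0.26, and median-ratio factors 28 lower and 15 higher with -0.11. Each of these scalings moved all members by nearly the same amount (log2 1.21 to 1.29 with TMM, 0.96 to 1.07 with equal totals and 1.12 to 1.21 with median-ratio factors), so the genes of smallest difference are those whose sign changed. Above 0 were 47 members with TMM, 30 with equal totals and 39 with median-ratio factors. Only those named by the rule are given next, which are 15, 12 and 14 of them. With TMM the log2 SXL over SSX was 0.37 for Abl, 0.059 for pum, 0.55 for rl, 0.15 for tkv, 0.43 for Sdc, 0.65 for tara, 0.62 for luna, 0.79 for CG18769, 0.81 for MFS17, 0.75 for Lasp, 0.10 for chinmo, 0.70 for bun, 0.97 for Bsg, 0.67 for how and 0.54 for Ptp61F. With equal totals it was 0.12 for Abl, 0.31 for rl, 0.20 for Sdc, 0.42 for tara, 0.38 for luna, 0.56 for CG18769, 0.56 for MFS17, 0.51 for Lasp, 0.47 for bun, 0.73 for Bsg, 0.43 for how and 0.31 for Ptp61F. With median-ratio factors it was 0.28 for Abl, 0.47 for rl, 0.064 for tkv, 0.35 for Sdc, 0.56 for tara, 0.53 for luna, 0.71 for CG18769, 0.72 for MFS17, 0.66 for Lasp, 0.015 for chinmo, 0.62 for bun, 0.88 for Bsg, 0.58 for how and 0.46 for Ptp61F. The depth of the GFP libraries, with a median of 33 reads per member, limits the comparisons with GFP. The GFP libraries also enter the shared spread of the SXL against SSX test, where 92 genes were lower with either of them left out.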
